A study of Mus musculus with 12 samples.

Results

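The retinoid genes examined here are Cyp26a1, Aldh1a2, Rara, Rarb, Rarg, Crabp1, Crabp2, Dhrs3 and Stra6, which make, move, sense or destroy retinoic acid. They were chosen by name, and every probe set whose platform annotation names only that gene was used. This gave 10 probe sets for the 9 genes, of 45037 probe sets and 18193 genes with a usable symbol. Rarg had 2 probe sets and each other gene had 1. The arrays hold RNA of untreated CD1 mouse embryos at embryonic day 9.5. For all arrays the posterior neural tube was put in pancreatin (2 mg per ml, 1 min), freed with needles and cut along its length into 6 pieces. The groups are part 1, part 2, part 3, part 4, part 5 and part 6, with 2 arrays each, and the labels do not say which number lies most caudally. Per the series' design text the tissue came from 2 embryos, so the replicate number is taken to mark the embryo and all p-values rest on these 2 animals. CD1 is an outbred stock, and no mutant or treated embryo is part of the comparison.

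Retinoic acid is a small lipid signal made from vitamin A. Stra6 lets retinol into cells, retinol dehydrogenases such as Rdh10 oxidise it to retinal, Dhrs3 reduces retinal back to retinol, and Aldh1a2 turns retinal into retinoic acid. Crabp1 and Crabp2 carry the acid inside cells, and the nuclear receptors Rara, Rarb and Rarg bind it as partners of retinoid X receptors on paired DNA half-sites. Cyp26a1 hydroxylates and so inactivates it. In the elongating embryo Aldh1a2 is known from the somites and Cyp26a1 from the tail bud, and the spinal cord precursors between them meet more retinoic acid as they leave the tail bud.

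Cyp26a1 and Rarb are textbook targets of the receptors, and their promoters are shown because both windows hold the same kind of receptor element, while the genes ran in opposite directions along the tube. The sequences are from RefSeq on GRCm38.p6, on the strand of the gene, from 250 bases before to 50 bases after an annotated start. Capitals mark the half-sites that were found.
Cyp26a1: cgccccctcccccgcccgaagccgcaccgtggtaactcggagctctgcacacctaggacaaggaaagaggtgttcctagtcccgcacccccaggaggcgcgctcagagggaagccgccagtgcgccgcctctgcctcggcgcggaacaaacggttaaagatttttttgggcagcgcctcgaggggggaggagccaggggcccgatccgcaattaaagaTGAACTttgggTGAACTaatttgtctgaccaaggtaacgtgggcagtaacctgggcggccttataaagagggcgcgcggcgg
Rarb: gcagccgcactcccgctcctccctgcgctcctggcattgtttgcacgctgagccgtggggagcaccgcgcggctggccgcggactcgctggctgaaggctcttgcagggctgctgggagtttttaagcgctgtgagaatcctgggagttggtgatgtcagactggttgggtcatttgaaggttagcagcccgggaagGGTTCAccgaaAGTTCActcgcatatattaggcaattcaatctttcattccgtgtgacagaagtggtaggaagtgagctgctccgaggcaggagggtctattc
The Cyp26a1 window is chr19:37697558-37697857 on the plus strand and the Rarb window is chr14:16575427-16575726 on the minus strand.

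The search asked for 2 half-sites, repeated in the same direction with 1, 2 or 5 bases between them, on either strand; a pair of one spacing can overlap a pair of another. A half-site was AGGTCA, which is the usual consensus, or GGGTCA, which the receptors are also known to bind, or AGTTCA, which is a known variant, or GGTTCA, which is another. Receptor elements of this spacing are textbook knowledge for both genes, so finding them here is no independent result. Read in the direction of the repeat, the elements are as follows, with the half-sites in capitals.
Cyp26a1: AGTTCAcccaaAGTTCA
Rarb: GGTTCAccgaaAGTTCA
Both have the 5-base spacing and end in the same half-site. The Cyp26a1 element runs against the direction of transcription and covers bases 32 to 16 before the start, and the Rarb element runs with it and covers bases 53 to 37 before the start. Windows were at hand for 8 of the 9 genes, 17 windows in all, and the other 15 held no such repeat; Crabp2 had none in the table. Over all 32851 windows of this length, 0.0974% held the 5-base repeat and 0.588% held any of the 3 spacings. A match is a stretch of letters and no evidence of binding in this tissue.

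The deposited values are MAS5 signals on a linear scale, scaled to the same trimmed mean on every array. Array medians ran from 16.7 to 19.1, and signals at or under them cannot be told from background, since detection calls were not used here. Among 8 neural tube markers such as Sox2 and Pax6, 1 had a mean below the array median in part 2 and none in the other pieces. Changes were tested with limma on log2(signal + 4.43), with p-values adjusted by Benjamini-Hochberg over 12089 genes and a threshold of 0.05. All 9 genes passed the filter on low signals through 1 probe set each; the second probe set of Rarg did not. In bulk pieces, fewer cells of a type and less RNA per cell cannot be told apart.

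Along the part number the slope test called 5 of the 9 genes, against 12.7% of all genes tested. Aldh1a2, Rarb and Crabp2 rose (3 of 9, against 5.66% of all genes) and Cyp26a1 and Rarg fell (2 of 9, against 7.08%). Rara, Crabp1, Dhrs3 and Stra6 did not pass. The median slope of the 9 genes was -0.051 log2 per part, beside -0.0073 over all genes. The same shares of all genes, 5.66% rising and 7.08% falling, belong beside the slope counts of marker genes given below. The test of part 6 against part 1 called the same 5 genes, against 9.09% of all genes (4.17% higher and 4.92% lower in part 6), and the F test among the 6 pieces called 4 of 9, against 4.91%. With the embryo as a block the F test called 5, as Dhrs3, near background on most arrays, was added (adjusted p = 0.0418, against 0.190 without the block). The arrays of part 6 and part 1 did not overlap for 6 of the 9 genes, 3 higher and 3 lower in part 6; over all genes this held for 46.9% (20.2% higher and 26.7% lower), so that count alone says little.

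**Figure D1:**
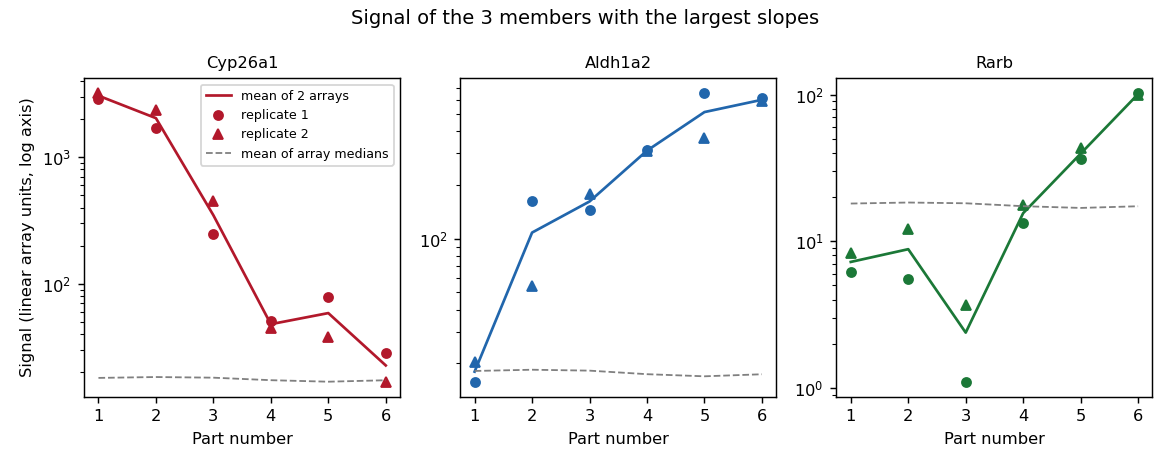
Signal of Cyp26a1, Aldh1a2 and Rarb (linear array units, log axis) against the part number, with replicate 1 as circles, replicate 2 as triangles, the mean of 2 arrays as a line and the mean of the array medians dashed. Cyp26a1 lost most of its signal between parts 2 and 4, Aldh1a2 was above the median from part 2 on, and Rarb was above it in parts 5 and 6 alone; levels of different genes are not comparable.

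Breakdown comes first among the roles. Cyp26a1 (probe set 1419430_at) had signals of 2899 and 3217 in part 1, 1710 and 2358 in part 2, and 247 and 449.5 in part 3. It then had 51.1 and 45.0 in part 4, 79.4 and 38.1 in part 5, and 28.7 and 16.7 in part 6. Parts 1, 2, 3 and 4 did not overlap one another, parts 4 and 5 did, and the lowest array of part 6 was at the level of the array median. The mean was 22.7 ± 8.48 in part 6, against 3058 ± 225 in part 1 (SD, n = 2 each). Part 6 minus part 1 was -6.85 ± 0.38 log2 (SE, limma adjusted p = 1.00e-05), and from -7.18 to -6.26 over 21 alternatives. Part 6 is close to background, and the difference was -7.07 with an offset of 0.05 of the median signal. With the median itself as offset it was -6.26.

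The decline of Cyp26a1 was uneven. On the log2 scale the gene had covered 8.81% of its end-to-end difference in part 2, 46.4% in part 3 and 85.6% in part 4, with 82.9% in part 5. The step of part 3 against part 2 was -2.58 ± 0.38 log2 and passed (limma adjusted p = 0.0449), where 0.19% of all genes passed and 0.0993% passed downward. The step of part 4 against part 3 was as large, -2.69 ± 0.38, and did not pass (adjusted p = 0.150); 0.00827% of all genes passed there, and an adjusted p depends on how many other genes move. The call for part 3 against part 2 was lost on leaving out any 1 array of parts 1, 2, 3, 4 or 6 (adjusted p up to 0.281), and with the embryo as a block (0.0635). The other 3 steps were -0.60 (part 2 against part 1), 0.19 (part 5 against part 4) and -1.17 (part 6 against part 5), and none passed. Of the 9 genes 0 passed in any of these 3, against 0.248%, 0.00827% and 0.00827% of all genes. At an unadjusted p under 0.05 there were 4, 2 and 3 of the 9, against 10.8%, 3.63% and 3.83% of all genes.

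Markers of presomitic mesoderm, the tissue beside the caudal neural tube, were high in the same pieces. Over 11 such genes the summed signal was 6070 and 4262 in part 1, 4806 and 2277 in part 2, and 871 and 836 in part 3. It was 861 on both arrays of part 4, 1117 and 780 in part 5, and 1236 and 1203 in part 6. Of 10 tested, Hes7, Rspo3, Dll3 and Tbx6 fell and Pcdh8 rose; Msgn1, Mesp1, Mesp2, Dll1 and Lfng did not pass. Hes7, a segmentation clock gene, averaged 16.1 ± 2.12 in part 6, against 1126 ± 413 in part 1, and Tbx6 averaged 12.7 ± 0.237 in part 6, against 353 ± 233 in part 1 (SD, n = 2 each). Rspo3 averaged 108 ± 32.2 in part 6, against 2611 ± 42.7 in part 1. The sum in part 1 was thus mostly Rspo3 and Hes7 and is no reading of all 11 genes. Pcdh8 averaged 759 ± 40.7 in part 6, against 19.8 ± 25.0 in part 1, and so made up most of the sum in part 6. Without Pcdh8, left out after its values were seen, the sum of the other 10 was 6033 and 4260 in part 1, 4199 and 2270 in part 2, and 721 and 716 in part 3. It was 438 and 534 in part 4, 502 and 389 in part 5, and 449 and 473 in part 6. Without Pcdh8 the sum was thus lower in part 4 than in part 3, as Cyp26a1 was. With Pcdh8 the sums of parts 3 and 4 overlapped. Over parts 3 to 6 alone, a setting chosen after seeing the data here and below, the slope of Cyp26a1 was -1.08 log2 per part (limma adjusted p = 0.0285). The part of presomitic RNA in the Cyp26a1 result was not tested. Of 10 tested surface ectoderm markers, 8 also fell, with summed signals over 12 genes of 379 and 438 in part 6, against 1485 and 571 in part 1; their part was not tested either.

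Synthesis ran the other way. Aldh1a2 (probe set 1422789_at) had signals of 15.6 and 20.2 in part 1, 162 and 53.9 in part 2, and 145 and 178 in part 3. It had 312 and 310 in part 4, 655 and 368 in part 5, and 613 and 587 in part 6. Part 1 stood below every other piece and at the level of the array median. Parts 2 and 3 overlapped, as did parts 5 and 6, while part 4 lay above part 3 and below part 5 on every array. The mean was 600 ± 18.2 in part 6, against 17.9 ± 3.26 in part 1 (SD, n = 2 each), a difference of 4.76 ± 0.43 log2 (SE, limma adjusted p = 0.000174). Because part 1 cannot be told from background, the size of this difference depends on the offset, and it ranged from 4.12 to 5.01 over 21 alternatives.

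By the same measure Aldh1a2 had covered 45.1% of its end-to-end difference in part 2, and it stood at 60.7% in part 3 and 80.3% in part 4, with 94.0% reached in part 5; these shares rest on the same part 1 level. Its largest step, 2.15 ± 0.43 log2 for part 2 against part 1, did not pass (limma adjusted p = 0.108). It did pass without replicate 2 of part 2, at 2.90 log2 (0.0447). The slope was 0.907 ± 0.097 log2 per part (adjusted p = 4.56e-05), with 0.908 in replicate 1 and 0.906 in replicate 2. With all 12 arrays, no step between consecutive pieces passed for this gene.

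Somites are the classical source of Aldh1a2, so their markers were read on the same arrays. Over 11 somite genes the summed signal was 214 and 159 in part 1, 649 and 124 in part 2, 127 and 141 in part 3, 102 and 117 in part 4, 108 and 103 in part 5, and 103 and 76.1 in part 6. Of these 11, 8 had means below the array median in part 1, 7 in part 2 and 10 in each of parts 3 to 6. Only 4 were tested, of which 1 fell and 0 rose. Replicate 1 of part 2 stood apart, with the high somite sum and the higher of the 2 Aldh1a2 signals in that piece. The difference was not confined to somite markers. Against replicate 2, this array had higher presomitic (4806 against 2277) and notochord and floor plate sums (588 against 56.6). Its surface ectoderm (656 against 960) and neural tube sums (2848 against 3522) were lower. Without that array the slope of Aldh1a2 was 0.97 log2 per part (limma adjusted p = 1.37e-05) and the step of part 2 against part 1 was 1.39. Over parts 3 to 6 alone the slope was 0.63 (adjusted p = 0.00519). Aldh1a2 is also known from motor neurons: over 10 neuron and motor neuron markers the summed signal was 151 and 171 in part 6, against 294 and 314 in part 1. Of 6 tested, Mnx1 and Stmn2 fell and 0 rose. Without Mnx1, left out after its values were seen, the sum of the other 9 was 150.1 and 168 in part 6, against 155 and 159 in part 1. Of the 8 neural tube markers 5 rose and 0 fell, with sums of 4844 and 5113 in part 6, against 1860 and 1468 in part 1. The part of somite RNA, of neurons or of the share of neural tissue in the rises of Aldh1a2, Rarb and Crabp2 was not tested.

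**Figure D2:**
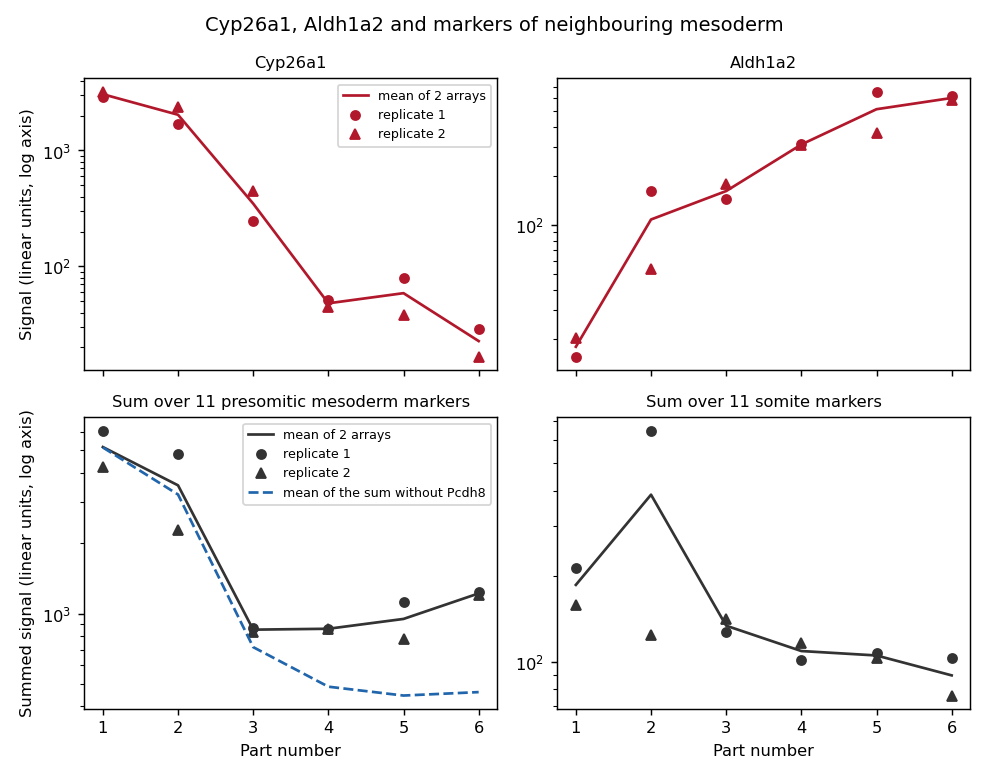
Signal of Cyp26a1 and Aldh1a2 (upper panels) and summed signal of 11 presomitic mesoderm and 11 somite markers (lower panels; dashed, the presomitic sum without Pcdh8) against the part number, all on log axes in linear array units, with replicate 1 as circles, replicate 2 as triangles and their mean as a line. The presomitic sum was 871 and 836 in part 3 and was highest in parts 1 and 2, and the somite sum was highest on 1 array of part 2 and lowest in part 6.

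The receptors differed from one another. Rarb (probe set 1454906_at) had signals of 6.18 and 8.28 in part 1, 5.53 and 12.1 in part 2, and 1.09 and 3.68 in part 3, all under the array median. It had 13.3 and 17.8 in part 4, 36.2 and 43.0 in part 5, and 103 and 99.0 in part 6. Parts 4, 5 and 6 each lay above every array of the pieces before. The mean was 101 ± 2.68 in part 6, against 7.23 ± 1.49 in part 1 (SD, n = 2 each), or 3.18 ± 0.28 log2 (SE, limma adjusted p = 0.000133). Only 4 of 12 arrays, those of parts 5 and 6, were above the array median. Rarb thus passed the filter only through the pieces where it was high, and its p-values are not independent of that filter. With no filter the limma adjusted p of part 6 minus part 1 was 0.000368.

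Rarb rose late. It had covered 24.3% of its end-to-end difference in part 4 and 60.3% in part 5. The squared term of the part number was 0.25 ± 0.049 log2 and passed (limma adjusted p = 0.0272, where 1.48% of all genes passed and 0.521% passed upward), for 1 of the 9 genes. That call was lost on leaving out replicate 2 of part 1, replicate 2 of part 3, replicate 1 of part 4 or either array of part 6 (adjusted p from 0.0564 to 0.0777). It was also lost with a smaller offset (0.115) and with no filter (0.0526), and the signals of parts 1 to 3 cannot be told from background. Over parts 3 to 6 alone the course was steeper, with a slope of 1.31 log2 per part (adjusted p = 3.53e-05) and a squared term of -0.077 that did not pass (adjusted p = 1.00). The slope over all pieces, 0.65 ± 0.12, was not called without both arrays of part 6 (0.0967). Signals in parts 1 to 3 carry no order, so the size of the rise depends on the offset: part 6 minus part 1 ranged from 2.25 to 3.66 log2 over 21 alternatives.

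Rarg, the receptor known from early and caudal progenitors, fell. Its brighter probe set (1419415_a_at) had signals of 335 and 198 in part 1, 235 and 258 in part 2, 212 and 217 in part 3, 183 and 205 in part 4, 127 and 161 in part 5, and 109 and 95.0 in part 6. The arrays of part 6 were the lowest of all 12 and those of part 5 the next lowest, while parts 1 and 2 overlapped. The mean was 102 ± 9.63 in part 6, against 266 ± 96.4 in part 1 (SD, n = 2 each). The slope was -0.26 ± 0.040 log2 per part (SE, limma adjusted p = 0.000943) and part 6 minus part 1 was -1.31 ± 0.24 (adjusted p = 0.00944). That end comparison was lost without replicate 2 of part 6 (0.0774), and the F test among pieces missed the threshold (0.0525). Most of the fall lay in the last 2 steps, as Rarg had covered 31.0% of it in part 4. The second probe set (1419416_a_at) was above the array median on 1 array, with means of 1.61 in part 6, against 9.18 in part 1.

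Rara, the broadly expressed receptor, was not clearly above background. Its probe set (1450180_a_at) was above the array median on 3 of 12 arrays, with a lowest signal of 1.14, on 1 array of part 1, and a highest of 24.1, on 1 array of part 4. The 2 arrays of part 1 were 19.5-fold apart. Its slope of -0.051 ± 0.13 log2 per part did not pass (limma adjusted p = 0.850), and no level or direction can be read from it. Isoforms of the receptors were not told apart.

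Of the carriers, Crabp2, which hands retinoic acid to the receptors, was bright in every piece. It (probe set 1451191_at) had signals of 1135 and 1039 in part 1, 754 and 805 in part 2, 983 and 979 in part 3, and 984 and 1068 in part 4. It had 1236 and 1284 in part 5 and 1555 and 2048 in part 6. The course dipped in part 2, below every other array, and each piece from part 4 on lay above the one before. The mean was 1801 ± 348 in part 6, against 1087 ± 67.8 in part 1 (SD, n = 2 each), 1.66-fold. Part 6 minus part 1 was 0.71 ± 0.17 log2 (SE, limma adjusted p = 0.0318) and the slope was 0.16 ± 0.045 (0.0305).

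Both calls of Crabp2 were near the threshold. The slope was not called without either array of part 2 (limma adjusted p = 0.0580 and 0.0554), replicate 2 of part 5 (0.0514) or either array of part 6 (0.0819 and 0.114). With no filter neither the slope (0.0533) nor the end comparison (0.0691) was called. The end comparison was not called without replicate 2 of part 1, replicate 2 of part 6, or any 1 array of parts 2, 4 and 5 (0.0511 to 0.239). Over parts 3 to 6 the slope was 0.29 log2 per part (adjusted p = 0.0274).

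Crabp1, which binds retinoic acid in the cytosol and is known from neural crest, followed no line. It (probe set 1448326_a_at) had signals of 110 and 40.9 in part 1, 135 and 62.7 in part 2, 28.9 and 44.4 in part 3, 33.3 and 39.5 in part 4, 38.0 and 35.5 in part 5, and 78.5 and 56.2 in part 6. The 5 lowest arrays were all in parts 3, 4 and 5, and in parts 1 and 2 replicate 1 was 2.70 and 2.15 times replicate 2. The slope was -0.11 ± 0.098 log2 per part (limma adjusted p = 0.534), and the squared term, 0.12 ± 0.060, did not pass either (0.465). The presomitic sum was also higher in replicate 1 in those 2 pieces. So were the sums of somite, endoderm, lateral plate and intermediate mesoderm, and notochord and floor plate markers. The other marker sums were not higher in replicate 1 in both pieces. The part of any such tissue in the Crabp1 signal was not tested.

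Retinol entry and return gave no call. Stra6 (probe set 1422723_at) had signals of 41.7 and 41.4 in part 1, 56.6 and 78.7 in part 2, 45.8 and 42.2 in part 3, 36.6 and 47.3 in part 4, 44.1 and 31.2 in part 5, and 29.2 and 23.7 in part 6. Part 2 was highest and part 6 lowest, without overlap with any other piece, but the slope of -0.15 ± 0.050 log2 per part did not pass (limma adjusted p = 0.0678). It passed without replicate 1 of part 1 (0.0459), replicate 2 of part 1 (0.0382) or both (-0.26 per part, 0.00778). Dhrs3 (probe set 1448390_a_at) was above the array median on 4 of 12 arrays, with signals from 2.64 to 22.1 and a slope of 0.083 ± 0.11 (0.687). Replicate 1 was the higher array in 6 of 6 pieces for Dhrs3; that difference, -0.54 ± 0.17 log2 for replicate 2 minus replicate 1, did not pass (adjusted p = 0.137, where 1.63% of all genes passed).

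**Figure D3:**
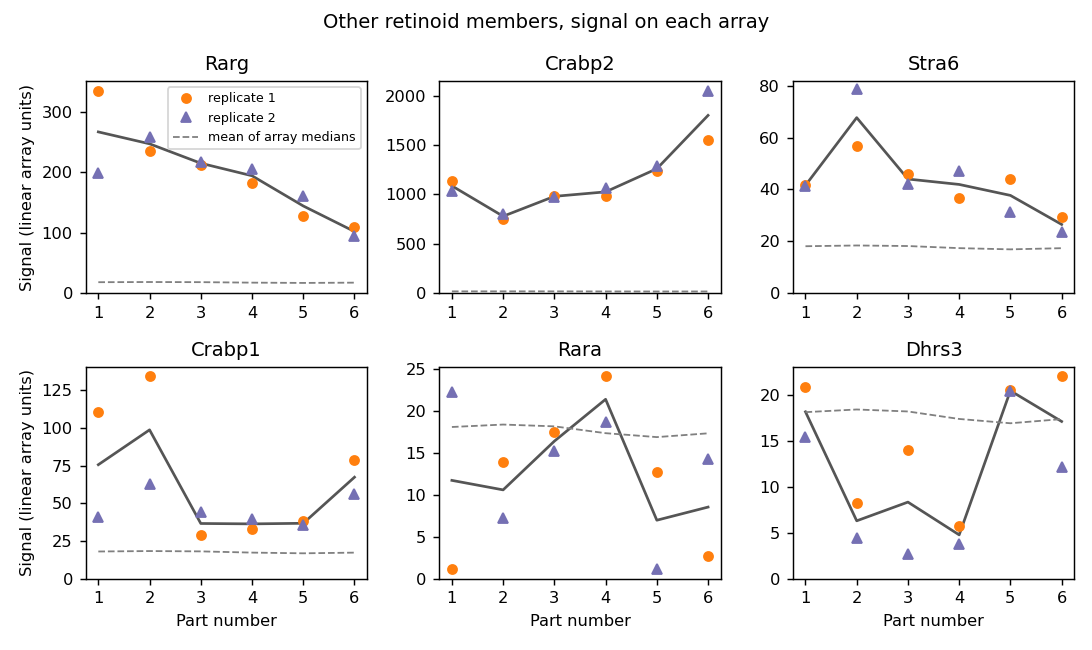
Signal (linear array units) of Rarg, Crabp2, Stra6, Crabp1, Rara and Dhrs3 against the part number, with replicate 1 as circles, replicate 2 as triangles, their mean as a line and the mean of the array medians dashed. Rarg descended to 102 in part 6 and Crabp2 climbed to 1801, while Rara and Dhrs3 scattered about the array median.

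The 2 embryos gave slopes of the same sign for 8 of the 9 genes. The share of all genes with the same sign was not computed, so that count alone says little. Among the 8, Crabp1 had -0.21 and -0.0085, and Dhrs3, near background, had 0.069 and 0.096 log2 per part. For replicate 1 and replicate 2 the slopes were -1.36 and -1.62 for Cyp26a1, 0.70 and 0.60 for Rarb, -0.31 and -0.21 for Rarg and 0.13 and 0.20 for Crabp2, in log2 per part. The limma test of the difference in slope called 0 of the 9 genes and 0 of all 12089, with unadjusted p of 0.241 or more for each of the 9 genes. Over all genes 798 had an unadjusted p under 0.05, and 0 of the 9 did. The sign differed between embryos for Rara, at 0.056 and -0.16.

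Other genes of the pathway are drawn in the plot of slopes by gene group. Of 8 genes of retinol supply and storage, 3 were tested, and 1 fell: Stra6l, a second receptor for the retinol carrier, averaged 89.5 ± 22.5 in part 6, against 237 ± 22.1 in part 1 (SD, n = 2 each), with a slope of -0.26 ± 0.051 log2 per part (limma adjusted p = 0.00460). With both arrays of part 6 left out, Stra6l was not called (0.0960). The median slope of the 3 was -0.095, beside -0.0073 over all genes, of which 7.08% fell.

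Of 20 retinol and retinal dehydrogenases, 9 were tested, with a median slope of -0.059, beside -0.0073 over all genes. Among them 1 rose and 1 fell, where 5.66% of all genes rose and 7.08% fell, so those counts say little. Rdh10, the main embryonic retinol dehydrogenase, had 151 ± 0.0362 in part 6, against 102 ± 0.0923 in part 1, and a slope of 0.12 ± 0.031 log2 per part (limma adjusted p = 0.0199); a second, dimmer probe set had 0.13. With either array of part 6 left out, Rdh10 was not called (0.0564 and 0.0558). Rdh14, a further member of that enzyme family, averaged 65.1 ± 11.8 in part 6, against 142 ± 32.6 in part 1, with a slope of -0.17 ± 0.040 log2 per part (limma adjusted p = 0.0142). It was not called without replicate 2 of part 6 (0.0581) or with the mean of its probe sets (0.0598), and 2 dimmer probe sets had -0.076 and -0.098. The other makers of retinoic acid, Aldh1a1 and Aldh1a3, did not pass the filter, with highest piece means of 2.00 and 11.1. Of 3 further hydroxylases, 0 were tested; the highest piece mean was 11.5 for Cyp26b1 and 9.21 for Cyp2s1, both under the array medians.

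Of 14 retinoid X receptors and receptor cofactors, 11 were tested, with a median slope of 0.032, beside -0.0073 over all genes. Among them 2 rose and 0 fell, where 5.66% of all genes rose and 7.08% fell, and counts this small say little. Rxra, a partner of the retinoic acid receptors, rose by 0.18 ± 0.032 log2 per part (limma adjusted p = 0.00267), though a second, dimmer probe set had 0.032. With the mean of both probe sets it was not called (0.0574). It averaged 142 ± 9.45 in part 6, against 72.2 ± 2.22 in part 1. Nrip1, a cofactor that retinoic acid is known to induce, rose by 0.26 ± 0.053 log2 per part (0.00540), averaging 252 ± 42.3 in part 6 and 77.6 ± 27.9 in part 1. Its 4 other, dimmer probe sets had 0.17, 0.29, 0.19 and -0.016.

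**Figure D4:**
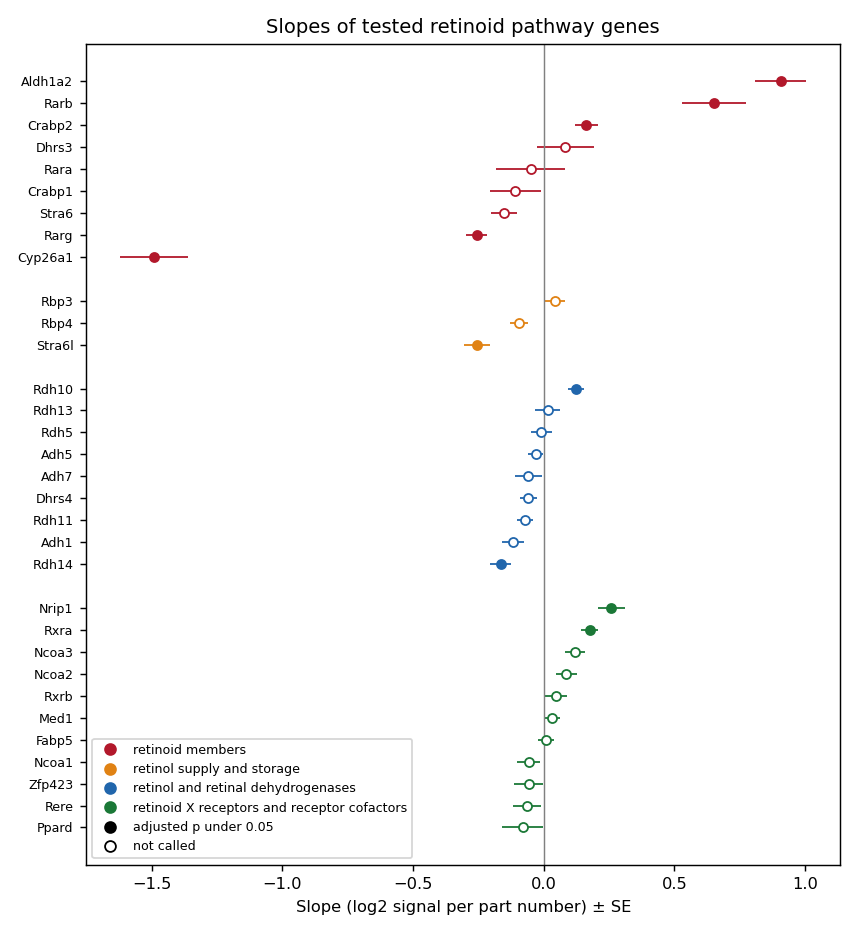
Fitted log2 change per part number, with its SE, for the 9 retinoid genes (top group) and the other tested pathway genes, grouped as retinol supply and storage, dehydrogenases, and receptors with cofactors; filled circles passed the limma test at an adjusted p under 0.05. Cyp26a1 at -1.49, Aldh1a2 at 0.907 and Rarb at 0.65 lay farther from 0 than every other gene shown.

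Of 20 genes known to respond to retinoic acid, 15 were tested. Of these, 7 rose and 2 fell, where 5.66% of all genes rose and 7.08% fell. The median slope was 0.018, beside -0.0073 over all genes. The 3 smallest p belonged to Tshz1 (0.66 ± 0.040 log2 per part, limma adjusted p = 3.34e-07), Meis1 (0.95 ± 0.051, 1.24e-07) and Fgf8 (-0.88 ± 0.080, 1.40e-05), the last a growth factor that retinoic acid is known to repress. Tshz1 averaged 959 ± 32.5 in part 6, against 77.3 ± 12.2 in part 1. Meis1, a homeobox gene that patterns the trunk, averaged 496 ± 62.9 in part 6, against 13.1 ± 1.65 in part 1. Fgf8 ran the other way, with 0.776 ± 0.680 in part 6, against 90.3 ± 30.6 in part 1 (SD, n = 2 each). The others that rose were Meis2, Nr2f1, Nr2f2, Zic1 and Nrip1. The other that fell was Cdx1, whose highest piece mean, 16.7 ± 5.56 in part 1 (SD), was under the medians of the arrays there. Nr2f1, Nr2f2 and Zic1 had part 1 means of 0.320 to 3.84, under the array medians, and part 6 means of 150.4 to 172. The Hox genes Hoxb1, Hoxa3, Hoxb4 and Hoxb5 had slopes between -0.064 and 0.018 and did not pass. This list was chosen with earlier results of these data known and holds genes that answer to other signals too.

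The genes whose profiles were most like each called gene were sought among 1850 named genes whose piece means spanned at least 1 log2, by Pearson's r over the 12 arrays. The arrays share 2 embryos and one order of pieces, so the r values are descriptions. For Cyp26a1 they were Lypd6b (0.979), the Wnt enhancer Rspo3 (0.977), counted above as a presomitic marker, and the Eph receptor Epha1 (0.972). For Aldh1a2 they were the proneural gene Neurog2 (0.976), Mn1 (0.970) and Scrn1 (0.967). For Rarb they were Pkdcc (0.960), Pxylp1 (0.957) and the ventral progenitor gene Olig2 (0.955). Rarg was closest to Castor1 (0.962), Mtss1 (0.960) and Egflam (0.958). Crabp2 was closest to Mir124-2hg (0.948), the host transcript of a neuronal microRNA, then to Pik3r1 (0.936) and Msx3 (0.911). None of the 9 retinoid genes was among the 3 closest to another. With 3 places among 1850 genes, and the highest r alone ranked, that says little about how the 9 genes go together.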

How the data were processed

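Posterior neural tube of CD1 embryos was treated with pancreatin (2 mg per ml, 1 min), freed with needles, cut into 6 pieces and its RNA was amplified in 2 rounds before hybridisation, per the labels' protocols; such copies shorten toward the 3′ end. The deposited intensities are linear MAS5 signals, per the submitters' processing notes; its version is not given in the sources used here. Leaving out 2% of probe sets at each end, every array had a mean of 100.0. Depth has no count here; 2 arrays per piece limit the precision.

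Of 45101 probe sets, 64 were controls; 34945 others had 1 gene symbol, 932 several and 9160 none. Symbols were updated by Entrez identifier for 34741. Probe sets above their array's median on 2 or more of 12 arrays were kept, and the kept one with the highest mean stood for its gene. The linear models of limma 3.58.1 (R 4.3.3) were run on log2(signal + 4.43), where 4.43 is 0.25 of the overall median signal (17.7), with p-values adjusted by Benjamini-Hochberg. The slope used all 12 arrays, and piece comparisons shared 1 estimate of the spread. Unless a block is named, the slope, F, curvature and piece tests treated the 12 arrays as independent, although they were read as coming from 2 embryos. Fits were tested on simulated data. Promoters came from RefSeq (GRCm38.p6).

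The genes and lists were chosen with earlier results of these data known. Named genes are the 9 genes, the called genes of other lists and, for each called gene, the 3 closest profiles, without clone symbols. To check pairing, each array's deviation from the mean of its piece was correlated across genes between arrays of one number: r was 0.183 to 0.335 (median 0.234) over 15 pairs of pieces. As the design text names 2 embryos, a number was read as 1 embryo. Alternatives covered the offset, filter, normalization, probe set choice, variance model, embryo block and leaving out arrays.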

Additional observations from a re-analysis of the deposited data

How the results depend on the processing

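The smaller and larger offsets were 0.05 of the median signal and the median itself. Over 24 alternatives the slopes of Cyp26a1 (-1.66 to -1.08 log2 per part), Aldh1a2 (0.63 to 1.06) and Rarg (-0.36 to -0.20) kept their direction and call, as did part 6 minus part 1 for Cyp26a1, Aldh1a2 and Rarb over 21. Among the 9 genes, 5 were called by slope and 4 to 6 on leaving out 1 array; 3 were called without both arrays of part 6. For part 6 minus part 1 the count was 5, or 3 to 5 on leaving out 1 array, and for the F test 4, or 3 to 5, and 2 over parts 3 to 6. For curvature the count was 1, or 0 to 2 on leaving out 1 array. It was 2 with the larger offset, the stricter filter at the 75th percentile or a trended robust variance. It was 0 with the smaller offset, no filter, or without both arrays of part 1, both of part 6 or all of parts 1 and 2. Between consecutive pieces there was 1 call among the 9 genes. There were 3 with the stricter filter or the trended variance and 2 with the larger offset. There were 0 with the smaller offset, no filter, quantile normalization, every probe set its own row or the replicate block, and 0 to 1 on leaving out 1 array.

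With the embryo as a replicate block the same slope and end comparisons of the 9 genes were called, Crabp2 having a limma adjusted p of 0.0315 for its slope, and calls between consecutive pieces over all genes were 87 against 56. These were 95 with the larger offset, 21 without a filter, 114 with the stricter filter, 110 with the trended variance and 21 to 133 on leaving out 1 array. Over all genes, 1540 were called by slope (1177 to 1542 on leaving out 1 array; 903 without part 1, 976 without part 6, 441 over parts 3 to 6). The F test called 594 (344 to 566; 306, 329 and 130) and part 6 minus part 1 called 1099 (487 to 1305). Curvature was called for 179 (109 to 194; 119 without a filter, 4 without part 1, 35 without part 6, 0 over parts 3 to 6). Replicates differed for 197 genes (113 to 161; 405 with the larger offset, 114 without a filter, 488 with the stricter filter, 806 over probe sets, 612 with the trended variance, 116 without part 6, 62 over parts 3 to 6). Part of each change follows from fewer arrays or a changed number of genes tested; otherwise the cause was not tested.

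Directions turned only for values that never passed or were lost. Part 6 minus part 1 turned for Rara with the smaller offset (0.12) and ranged on leaving out 1 array from -1.20 to 1.06, from -0.70 to 0.65 for Crabp1 and from -0.44 to 0.24 for Dhrs3. The slope of Rara ranged from -0.20 to 0.039 and was 0.019 without part 6. Over parts 3 to 6, a setting chosen after seeing the data, the slopes of Crabp1 (0.25) and Cdx1 (0.014) and the squared term of Rarb (-0.077) turned. The step of part 4 against part 3 for Cyp26a1 passed with the larger offset (limma adjusted p = 0.0294), the stricter filter (0.0458) or the trended variance (0.0291). The Cdx1 call was lost in 12 alternatives. Leaving out part 1 ends the comparisons with it. A piece left with 1 array is assumed to vary like the others. Without part 1, part 6 or parts 1 and 2, calls were also lost among Rdh10, Rdh14, Rxra, Nrip1, Nr2f1 and Nr2f2. Signals near the array median limit Rara, Dhrs3, the early pieces of Rarb and part 1 of Aldh1a2.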
